A study of Mus musculus with 28 samples.

Results

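The genes described here encode 7 subunits of the GABA-A receptor, the chloride channel through which the transmitter GABA inhibits neurons: Gabra2, Gabra3, Gabra4 and Gabra5 (alpha subunits), Gabrb1 and Gabrb2 (beta subunits) and Gabrg1 (a gamma subunit). They were chosen by symbol, as 7 of the 52636 genes in the count files, and all 7 passed the filter on low counts. The RNA came from punches of the ventromedial prefrontal cortex, a region that takes part in emotional control, of 28 individual female mice in 4 groups of 7. The groups were mice given a virus labelled Slit1 knockdown and stressed for 3 days (a procedure abbreviated sCVS), the same virus without stress, a LacZ control virus with that stress, and LacZ without stress. All mice thus carried a virus, and no uninjected group was analysed here. The strain, the age and the cells reached by the virus were not given in the sources used here, and the tissue was a needle punch that holds all cell types of the region. In such bulk tissue, fewer cells of a type and less RNA per cell cannot be told apart.

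A GABA-A receptor is a ring of subunits around a chloride pore. GABA binds where an alpha meets a beta subunit, and benzodiazepines bind where certain alpha subunits meet a gamma subunit, so the mix of subunits sets a receptor's drug sensitivity and place on the neuron. In the cortex, some alpha subunits are known mainly from synapses and others from receptors outside them that carry a steady, tonic inhibition.

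Libraries held 30.6 M to 44.3 M counted fragments, with a median of 39.6 M. Slit1, the secreted guidance protein that the virus label names, did not differ beyond the spread in the libraries labelled Slit1 knockdown: it averaged 18.2 ± 9.8 CPM against 19.8 ± 10.2 CPM in LacZ libraries with stress (exact permutation p = 0.716, two-sided, SD, n = 7 each). Without stress the values were 25.9 ± 17.5 CPM and 24.4 ± 16.1 CPM (exact permutation p = 0.919, two-sided, n = 7 each), so every direction given for this virus rests on its label. All 10 markers of cortical excitatory neurons were detected, with summed levels from 679 to 1824 CPM. Of the libraries that stood apart in other transcripts, knockdown-labelled stressed replicate 2 had a summed level of 1930 CPM for 5 genes of meninges and bone, against a median of 52.4 CPM over the 28 libraries. Knockdown-labelled stressed replicate 7 had the highest sum of 7 striatal neuron markers, 209.9 CPM against a median of 53.5 CPM. CPM are counts per 1 M fragments of the scaled library.

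Of the 7 genes, 4 lie in a cluster on chromosome 5 (GRCm38), in the order Gabrg1, Gabra2, Gabra4 and Gabrb1 over 1398 kb. Gabrg1 (ENSMUSG00000001260, 70751047 to 70842617, minus strand) is separated by 115 kb from Gabra2 (ENSMUSG00000000560, 70957597 to 71095849, minus strand), and Gabra2 by 474 kb from Gabra4 (ENSMUSG00000029211, 71569749 to 71658308, minus strand). Gabra4 and Gabrb1 (ENSMUSG00000029212, 71658113 to 72149037, plus strand) stand head to head, with annotated starts that overlap by 196 bp. The other members are Gabrb2 on chromosome 11 (ENSMUSG00000007653, 42419757 to 42629028, plus strand), Gabra5 on chromosome 7 (ENSMUSG00000055078, 57407672 to 57510059, minus strand) and Gabra3 on chromosome X (ENSMUSG00000031343, 72432681 to 72656848, minus strand).

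The start regions of the 4 clustered genes are shown because these neighbours differ in base composition and, as described further on, in how their levels moved together. Each window runs from 250 bases before to 50 bases after a start annotated by RefSeq (GRCm38.p6), is written 5′ to 3′ on the strand of its gene, and has CG dinucleotides in capitals. The windows are chr5:70842568-70842867 (minus strand), chr5:71095800-71096099 (minus), chr5:71658259-71658558 (minus) and chr5:71657671-71657970 (plus, the first of the annotated starts of Gabrb1).
Gabrg1: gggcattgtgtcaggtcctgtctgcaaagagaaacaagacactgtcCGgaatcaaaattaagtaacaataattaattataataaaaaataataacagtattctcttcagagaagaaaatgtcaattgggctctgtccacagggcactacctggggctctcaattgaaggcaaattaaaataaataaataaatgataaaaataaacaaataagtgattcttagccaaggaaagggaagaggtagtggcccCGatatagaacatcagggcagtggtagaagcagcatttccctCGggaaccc
Gabra2: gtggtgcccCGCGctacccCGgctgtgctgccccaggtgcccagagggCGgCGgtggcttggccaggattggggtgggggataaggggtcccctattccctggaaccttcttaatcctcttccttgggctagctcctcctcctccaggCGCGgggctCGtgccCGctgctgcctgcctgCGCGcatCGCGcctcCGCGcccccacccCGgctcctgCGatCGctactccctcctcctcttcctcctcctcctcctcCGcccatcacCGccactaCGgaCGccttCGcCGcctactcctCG
Gabra4: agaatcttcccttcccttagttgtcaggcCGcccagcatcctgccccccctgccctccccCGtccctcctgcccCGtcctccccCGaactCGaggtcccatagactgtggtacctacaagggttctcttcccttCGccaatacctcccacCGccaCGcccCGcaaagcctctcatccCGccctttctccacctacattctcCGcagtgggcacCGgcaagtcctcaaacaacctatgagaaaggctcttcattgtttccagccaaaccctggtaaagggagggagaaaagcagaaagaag
Gabrb1: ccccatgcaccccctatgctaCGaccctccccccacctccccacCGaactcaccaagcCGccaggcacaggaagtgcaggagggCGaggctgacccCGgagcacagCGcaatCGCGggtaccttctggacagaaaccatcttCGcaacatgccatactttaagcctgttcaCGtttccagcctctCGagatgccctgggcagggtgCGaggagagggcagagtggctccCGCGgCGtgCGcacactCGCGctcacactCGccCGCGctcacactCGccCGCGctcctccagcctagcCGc

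The Gabra2 and Gabrb1 windows each held 25 CG dinucleotides, at 70.0% and 66.0% G + C, and the Gabra4 window 12 at 58.7%. The Gabrg1 window held 3 at 38.3%, below the median of 7 and of 52.7% over 32851 windows of mouse genes. Among the other members, the Gabra5 window held 13 CG dinucleotides, the first Gabrb2 window 11 and the Gabra3 windows 0. On either strand, the GC box letters GGGCGG occurred in the Gabra2 and Gabra4 windows and in the first Gabrb2 window, and in 35.7% of all windows. The TATA box letters TATAAA occurred in the first Gabrb2 window and the Gabra3 windows, and in 13.6% of all windows. The letters TGACGTCA and CACGTG occurred in no window of a member, and in 1.79% and 7.15% of all windows. A match describes these letters only.

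Fragments had been counted over whole gene spans, so intronic RNA counts toward each value, and its share was not measured. Exons cover 1.75% (Gabra3) to 8.59% (Gabrg1) of the spans. Fragments that lay in 2 overlapping genes were counted for neither, and this touched Gabra5 most. Of its 102388 bp, 90.5% lie inside other annotated genes, which leaves 9750 bp that could be counted, holding 365 of its 2974 exonic bp. Gabra5 rested on 108 to 424 fragments per library, against 904 to 7074 for Gabrg1, the next lowest, and 20097 to 44519 for Gabrb1, the highest. The Gabra5 values therefore describe a small stretch of that gene.

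Per kb of countable span, the order of the median levels was Gabra4 at 2.44, Gabra2 at 2.35, Gabrb2 at 2.19, Gabrb1 at 1.63, Gabra3 at 0.711, Gabra5 at 0.569 and Gabrg1 at 0.523 CPM per kb. Neighbours among the first 3 did not separate, since Gabra4 was above Gabra2 in 16 of 28 libraries and Gabra2 above Gabrb2 in 17 of 28. Gabra4 was above Gabrb2 in 23 of 28, with a median log2 ratio of 0.14 (SD 0.19 over libraries). A clear step followed, since Gabrb2 was above Gabrb1 in 27 of 28 libraries and Gabrb1 above Gabra3 in 28 of 28. Neighbours among the last 3 did not separate either, with Gabra3 above Gabra5 in 18 and Gabra5 above Gabrg1 in 14 of 28 libraries. Gabra3 was above Gabrg1 in 24 of 28, with a median log2 ratio of 0.62 (SD 0.66). Per whole span, Gabra5 would be at 0.0542 CPM per kb and last. These orders divide by span and not by exon length, so they depend on the share of exonic fragments, which was not measured.

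**Figure D1:**
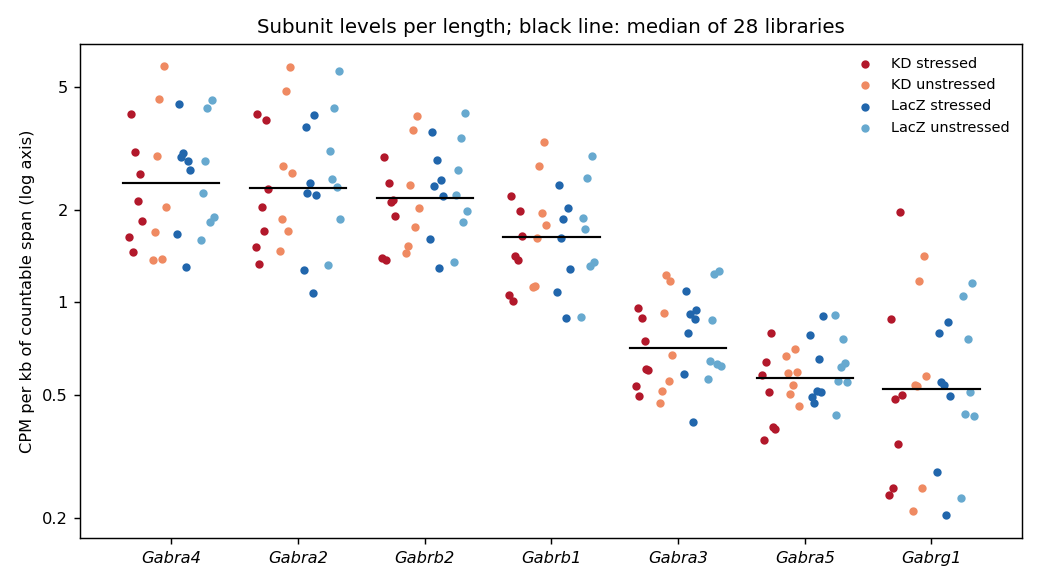
Level of each subunit gene in CPM per kb of countable span (log axis) in the 28 libraries, by virus and stress group; the black line is the median of all libraries. Gabra4, Gabra2 and Gabrb2 lie at medians of 2.19 to 2.44, Gabrb1 at 1.63, and Gabra3, Gabra5 and Gabrg1 at 0.523 to 0.711.

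None of the 7 subunits differed by the knockdown label or by stress beyond the spread between mice. By edgeR's quasi-likelihood test, 0 of 7 members passed a Benjamini-Hochberg adjusted p of 0.05 in each of the 7 comparisons, against a background of 0% of 19171 genes called in each: the knockdown label with stress, without stress and over both, stress under the knockdown label, under LacZ and over both, and their interaction. In the same order, edgeR gave 158, 172, 291, 343, 77, 424 and 68 genes of 19171 at an unadjusted p under 0.05. DESeq2 gave 175, 253, 373, 473, 123, 606 and 73, and limma's voomWithQualityWeights 870, 694, 1210, 935, 673, 1258 and 576, with 0 genes called by either tool. No member was among these genes by edgeR or DESeq2, and 1 was by voomWithQualityWeights, Gabrb2 for the knockdown label over both stress states (log2 fold change -0.27, adjusted p = 0.535). The shares of tested genes were 0.355% to 2.21% by edgeR, 0.381% to 3.16% by DESeq2 and 3% to 6.56% by voomWithQualityWeights. By edgeR and DESeq2, every share was below the one that chance alone gives at a p under 0.05. A lack of calls by these 2 tools therefore says little about small changes. The libraries of every member overlapped between the groups in all 4 comparisons of 7 against 7. In these, two-sided exact permutation tests of the mean log2 CPM gave p from 0.251 to 0.989 for the knockdown label with stress, 0.490 to 0.949 without stress, 0.288 to 0.844 for stress under the knockdown label and 0.441 to 0.980 under LacZ, where the smallest possible p is 5.83e-04.

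**Figure D2:**
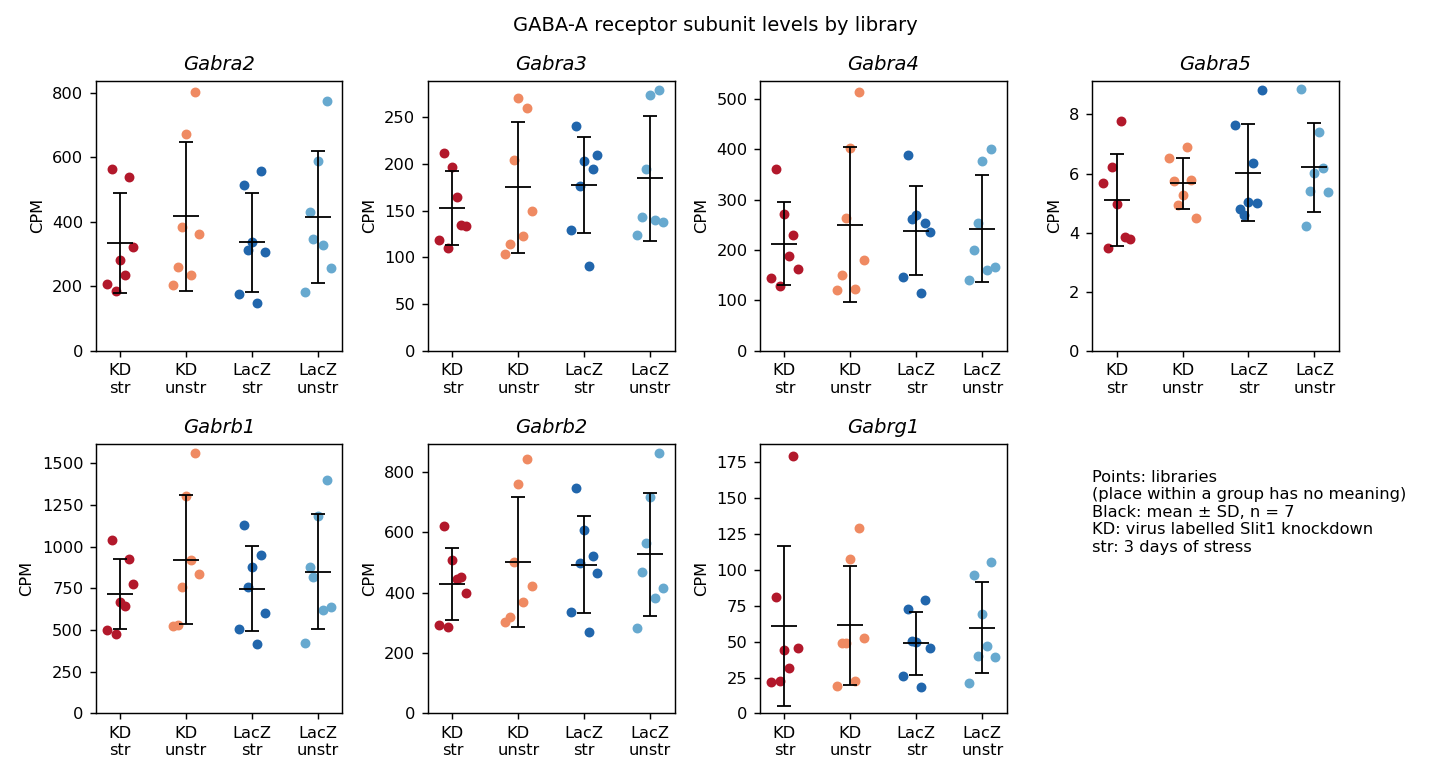
Level of the 7 subunit genes in CPM in each library, by group: knockdown-labelled stressed, knockdown-labelled unstressed, LacZ stressed and LacZ unstressed. Points are libraries and black bars the mean ± SD (n = 7); the groups overlap for every gene, and 1 knockdown-labelled stressed library stands at 179 CPM for Gabrg1.

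The alpha subunits are described first. Gabra2 encodes a subunit found at synapses, including those on the axon initial segment, and is known from mouse work as a mediator of the anxiety-reducing action of benzodiazepines. With stress, Gabra2 averaged 334 ± 156 CPM in stressed knockdown-labelled and 336 ± 154 CPM in stressed LacZ libraries (SD, n = 7 each), with the lowest, median and highest library at 185, 282 and 563 CPM under the knockdown label and 148, 312 and 559 CPM under LacZ. Without stress, it averaged 417 ± 232 CPM in unstressed knockdown-labelled libraries and 416 ± 205 CPM in unstressed LacZ ones (SD, n = 7 each), with lowest, median and highest values of 203, 363 and 804 CPM under the knockdown label and 183, 347 and 777 CPM under LacZ. The fit gave a log2 fold change of -0.00 ± 0.26 (SE; 95% interval -0.53 to 0.52) for the knockdown label over both stress states and of -0.32 ± 0.26 (SE; 95% interval -0.84 to 0.21) for stress over both viruses. The group means of knockdown-labelled and LacZ libraries lay within a few CPM of each other, and stressed means lay below unstressed means under both viruses, by less than 1 SD.

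Gabra4 encodes a subunit of receptors outside synapses that respond to neurosteroids and are insensitive to classical benzodiazepines. In stressed mice, Gabra4 averaged 213 ± 82.7 CPM in stressed knockdown-labelled and 239 ± 89.2 CPM in stressed LacZ libraries (SD, n = 7 each), with the lowest, median and highest library at 129, 189 and 362 CPM under the knockdown label and 115, 253 and 388 CPM under LacZ. In unstressed mice, it averaged 251 ± 154 CPM in unstressed knockdown-labelled libraries and 243 ± 106 CPM in unstressed LacZ ones (SD, n = 7 each), with lowest, median and highest values of 121, 179.6 and 515 CPM under the knockdown label and 140.5, 199.8 and 401 CPM under LacZ. For this gene the fit gave a log2 fold change of -0.06 ± 0.24 (SE; 95% interval -0.55 to 0.43) for the knockdown label over both stress states and of -0.13 ± 0.24 (SE; 95% interval -0.62 to 0.36) for stress over both viruses. Its unstressed knockdown-labelled group was the widest, and its range held every library of the other 3 groups except the lowest LacZ stressed one, at 115 CPM.

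Gabra3 encodes a synaptic alpha subunit that is prominent in monoaminergic neurons and is encoded on the X chromosome. After stress, Gabra3 averaged 153 ± 39.3 CPM in stressed knockdown-labelled and 178 ± 51.5 CPM in stressed LacZ libraries (SD, n = 7 each), with the lowest, median and highest library at 110, 135 and 211 CPM under the knockdown label and 90.2, 195 and 241 CPM under LacZ. Its level without stress averaged 175 ± 69.99 CPM in unstressed knockdown-labelled libraries and 184 ± 66.6 CPM in unstressed LacZ ones (SD, n = 7 each), with lowest, median and highest values of 104, 149 and 270.5 CPM under the knockdown label and 124, 143 and 279 CPM under LacZ. There was a log2 fold change of -0.15 ± 0.18 (SE; 95% interval -0.51 to 0.22) for the knockdown label over both stress states and of -0.12 ± 0.18 (SE; 95% interval -0.49 to 0.24) for stress over both viruses. In 2 of 7 stressed and 3 of 7 unstressed knockdown-labelled libraries it lay above the LacZ mean of log2 CPM in the same stress state.

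Gabra5 encodes a subunit of receptors that carry tonic inhibition, best known from the hippocampus. With TMM-scaled totals it had the smallest SD of log2 CPM of the members, 0.346. Its raw counts ran from 108 to 424 per library, where those of Gabra3 ran from 4432 to 9226, so this rank depended on the scaling. Under stress, Gabra5 averaged 5.11 ± 1.56 CPM in stressed knockdown-labelled and 6.03 ± 1.64 CPM in stressed LacZ libraries (SD, n = 7 each), with the lowest, median and highest library at 3.48, 4.98 and 7.78 CPM under the knockdown label and 4.58, 5.04 and 8.81 CPM under LacZ. Its unstressed level averaged 5.66 ± 0.853 CPM in unstressed knockdown-labelled libraries and 6.21 ± 1.52 CPM in unstressed LacZ ones (SD, n = 7 each), with lowest, median and highest values of 4.49, 5.74 and 6.9 CPM under the knockdown label and 4.21, 6.005 and 8.86 CPM under LacZ. Gabra5 had a log2 fold change of -0.18 ± 0.14 (SE; 95% interval -0.48 to 0.11) for the knockdown label over both stress states and of -0.09 ± 0.14 (SE; 95% interval -0.39 to 0.20) for stress over both viruses. Of all members it had the smallest unadjusted p for the knockdown label over both stress states (adjusted p = 1.00 by edgeR). It lay above the LacZ mean in 2 of 7 knockdown-labelled libraries in each stress state.

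Gabrb1 encodes a beta subunit and had the highest counts of the members. In the stressed groups, Gabrb1 averaged 718 ± 210.2 CPM in stressed knockdown-labelled and 749 ± 255 CPM in stressed LacZ libraries (SD, n = 7 each), with the lowest, median and highest library at 476, 666 and 1040 CPM under the knockdown label and 417, 759.7 and 1128 CPM under LacZ. In the unstressed groups, it averaged 921 ± 387 CPM in unstressed knockdown-labelled libraries and 851 ± 343 CPM in unstressed LacZ ones (SD, n = 7 each), with lowest, median and highest values of 525, 838 and 1561 CPM under the knockdown label and 420, 816 and 1402 CPM under LacZ. The fitted values were a log2 fold change of 0.03 ± 0.20 (SE; 95% interval -0.38 to 0.43) for the knockdown label over both stress states and of -0.27 ± 0.20 (SE; 95% interval -0.68 to 0.13) for stress over both viruses. Its stress value had the smallest unadjusted p of the members over both viruses (adjusted p = 1 by edgeR). Under the knockdown label, 2 of 7 stressed knockdown-labelled libraries lay above their unstressed mean.

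Gabrb2 encodes the other beta subunit, a common partner of alpha subunits in the adult brain. With the stress procedure, Gabrb2 averaged 429 ± 118 CPM in stressed knockdown-labelled and 493 ± 160.2 CPM in stressed LacZ libraries (SD, n = 7 each), with the lowest, median and highest library at 287, 444 and 622 CPM under the knockdown label and 269.8, 500 and 748 CPM under LacZ. Without it, the gene averaged 502 ± 216 CPM in unstressed knockdown-labelled libraries and 527 ± 203 CPM in unstressed LacZ ones (SD, n = 7 each), with lowest, median and highest values of 302, 424 and 842 CPM under the knockdown label and 284, 467 and 864 CPM under LacZ. Gabrb2 had a log2 fold change of -0.13 ± 0.19 (SE; 95% interval -0.53 to 0.26) for the knockdown label over both stress states and of -0.16 ± 0.19 (SE; 95% interval -0.55 to 0.23) for stress over both viruses. The lowest and highest libraries of each LacZ group enclosed the means of both knockdown-labelled groups.

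Gabrg1 encodes a gamma subunit whose receptors are less sensitive to benzodiazepines and which is known from the amygdala and basal forebrain more than from the cortex. After the stress procedure, Gabrg1 averaged 60.98 ± 55.9 CPM in stressed knockdown-labelled and 48.9 ± 22.1 CPM in stressed LacZ libraries (SD, n = 7 each), with the lowest, median and highest library at 21.6, 44.4 and 179 CPM under the knockdown label and 18.6, 49.5 and 78.8 CPM under LacZ. Without the procedure, it averaged 61.4 ± 41.5 CPM in unstressed knockdown-labelled libraries and 59.8 ± 31.6 CPM in unstressed LacZ ones (SD, n = 7 each), with lowest, median and highest values of 19.2, 49.4 and 129 CPM under the knockdown label and 21.2, 46.8 and 106 CPM under LacZ. Gabrg1 had a log2 fold change of 0.18 ± 0.34 (SE; 95% interval -0.51 to 0.87) for the knockdown label over both stress states and of -0.15 ± 0.34 (SE; 95% interval -0.84 to 0.54) for stress over both viruses. Its high value was a single library, knockdown-labelled stressed replicate 7, and without it the log2 fold change of the knockdown label with stress was -0.24 in place of 0.32, and over both stress states -0.10 in place of 0.18. Its stress value without that library was -0.57 in place of -0.01 under the knockdown label and -0.43 in place of -0.15 over both viruses, and its interaction -0.28 in place of 0.28. In that library the striatal genes Drd2, Drd1 and Adora2a stood at 17.5, 51.2 and 4.08 CPM, where the median library had 1.56, 15.7 and 2.43 CPM. The 4 other striatal markers were above their medians too, Tac1 at 71.0 against 10.5 CPM, Rgs9 at 37.9 against 12.9 CPM, Penk at 27.7 against 7.44 CPM and Ppp1r1b at 0.532 against 0.0695 CPM. The 10 interneuron markers summed to 907 CPM against a median of 530 CPM. Gad1 and Gad2, genes of GABA synthesis, had the most counts of that list over the 28 libraries (159421 and 162078). Single markers of the list in this library are not given, so the sum does not name a cell type. The part of these transcripts in the Gabrg1 value was not tested.

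**Figure D3:**
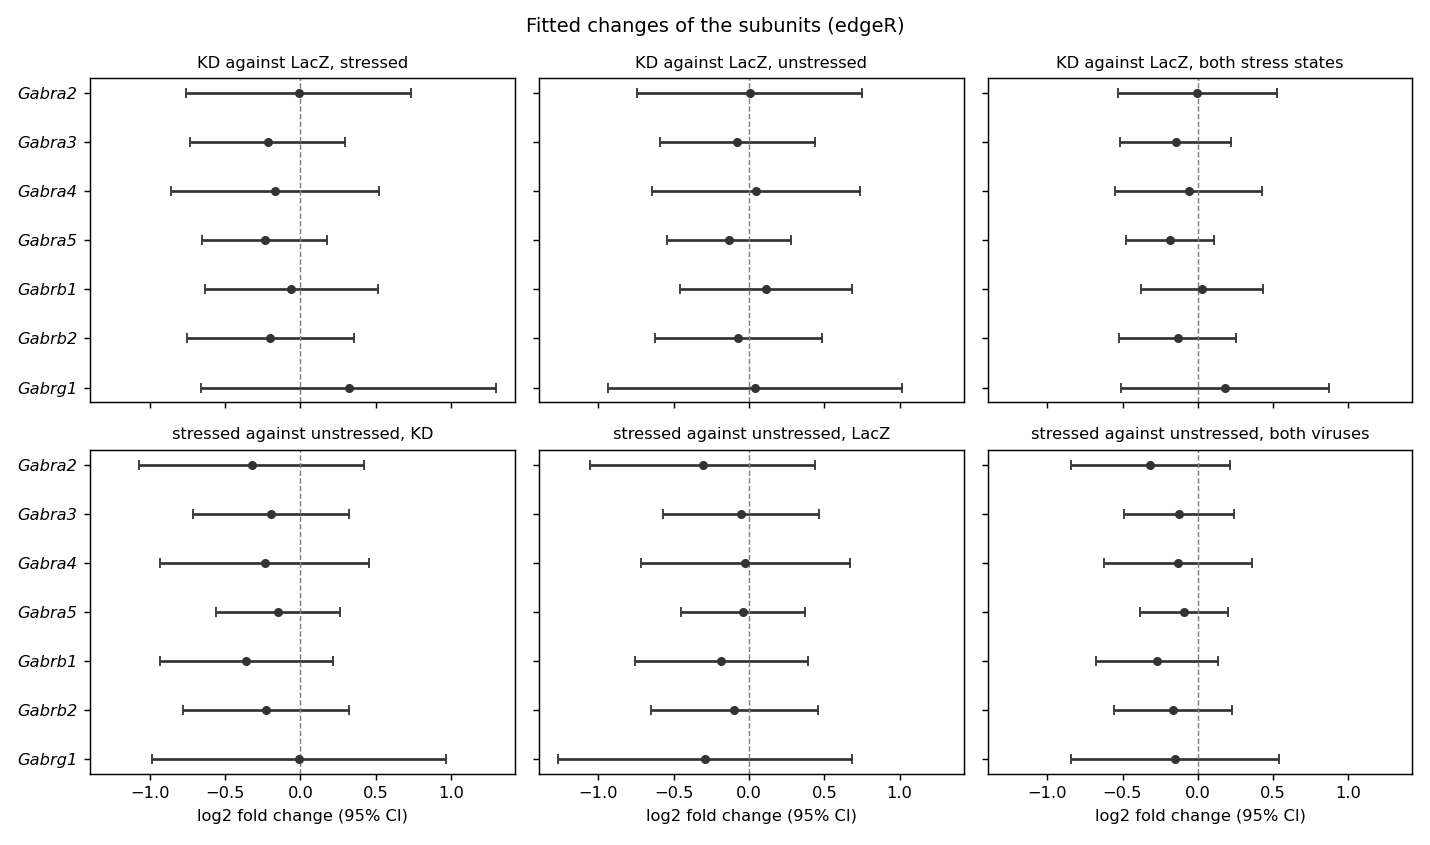
Fitted log2 fold change of each subunit gene with its 95% confidence interval by edgeR over 28 libraries, for the knockdown label (upper row) and stress (lower row), in single groups and averaged. All intervals include 0; Gabrg1 has the widest and Gabra5 the narrowest.

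Over both viruses, the fitted values for stress were below 0 for 7 of 7 members, from -0.32 (Gabra2) to -0.09 (Gabra5), with a median of -0.15, against a median of -0.01 over all 19171 genes, of which 53.7% were below 0. The direction depended on the scaling and the tool: with total counts Gabra4 was at 0.00, and with voomWithQualityWeights Gabra3, Gabra4, Gabrb2 and Gabrg1 were at 0.07, 0.15, 0.05 and 0.03. Single libraries moved them as well. Without knockdown-labelled unstressed replicate 7, Gabra2 was at -0.18, Gabrb1 at -0.17, Gabrb2 at -0.06, Gabra3 at -0.05, Gabrg1 at 0.01 and Gabra4 at 0.02, where all libraries gave -0.32, -0.27, -0.16, -0.12, -0.15 and -0.13. Gabra5 was at -0.03 without LacZ unstressed replicate 1 and at -0.16 without knockdown-labelled stressed replicate 2, and Gabra4 at -0.22 without knockdown-labelled stressed replicate 6. With the place in accession order as a covariate, an alternative added after the data were seen, the 7 values ran from -0.46 (Gabra2) to -0.06 (Gabra5), with Gabrg1 at -0.37, and the adjusted p by edgeR from 0.575 to 0.862. The members are not independent of each other, as the relations below show. For the knockdown label over both stress states, 5 of 7 were below 0, with a median of -0.06 against -0.02 over all genes, of which 55.9% were below 0. The interaction, which tests whether stress acted differently under the knockdown label than under LacZ, ran from -0.21 ± 0.48 (SE) for Gabra4 to 0.28 ± 0.67 for Gabrg1, with 95% intervals that all include 0. These intervals are wide: for Gabrg1 the interaction interval ran from -1.10 to 1.66, so changes within it could not be told from 0 with 7 mice a group.

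The rest of the GABA pathway was likewise without a called gene. Of 38 listed genes, 37 were tested, and 0 rose and 0 fell in any of the 7 comparisons, with 0 at an unadjusted p under 0.05 by edgeR in either averaged comparison. Srd5a1, which makes the precursors of GABA-A-active neurosteroids, was listed at 0 because its whole span lies inside another annotated gene. For stress over both viruses, 27 of the 37 genes (73%) were below 0, with a median of -0.11, against 53.7% of all tested genes. The single lists hold only 2 to 9 tested genes each, and their directions were not tested as sets. In this comparison 5 of 5 genes of GABA synthesis, loading and breakdown were below 0 (median -0.10), as were 8 of 9 genes of GABA-A receptor anchoring (median -0.17) and 5 of 5 genes of GABA-B receptors and their partners (median -0.18). Receptor assembly and trafficking had 4 of 9 below 0 (median 0.01), GABA uptake 2 of 4 (median 0.17), neurosteroid synthesis 1 of 3 (median 0.16) and the chloride transporters 2 of 2 (median -0.19). The smallest p belonged to Star, a cholesterol carrier of steroid synthesis, at 6.83 ± 0.576 CPM in the stressed and 7.51 ± 0.423 CPM in the unstressed libraries (SD, n = 14 each; log2 fold change -0.14 ± 0.07 SE, adjusted p = 1 by edgeR). Kctd16, an auxiliary subunit of GABA-B receptors, and Plcl1, which takes part in GABA-A receptor trafficking, had -0.34 ± 0.20 and -0.23 ± 0.17 (SE).

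For the knockdown label over both stress states, 21 of the 37 pathway genes (56.8%) were below 0 (median -0.03), near the 55.9% of all tested genes. Assembly and trafficking had 8 of 9 below 0 (median -0.07), anchoring 5 of 9 (median -0.06), GABA-B receptors and partners 3 of 5 (median -0.05), and the chloride transporters 2 of 2 (median -0.10). Synthesis, loading and breakdown had 2 of 5 below 0 (median 0.00), GABA uptake 0 of 4 (median 0.11) and neurosteroid synthesis 1 of 3 (median 0.05). Slitrk3, a postsynaptic adhesion protein of inhibitory synapses, had 42.4 ± 8.94 CPM in knockdown-labelled and 47.8 ± 9.06 CPM in LacZ libraries (SD, n = 14 each; log2 fold change -0.17 ± 0.11 SE, adjusted p = 1 by edgeR). Trak2, a motor adaptor that binds the receptor, had -0.11 ± 0.08, and Slc6a13, a GABA transporter of the brain's coverings, 0.56 ± 0.45 at 3.42 ± 2.81 and 2.33 ± 2.33 CPM.

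Most of the variation of these genes lay between mice of the same group. Between the lowest and the highest of the 28 libraries, levels in TMM-scaled CPM differed 2.55-fold for Gabra5, 3.10-fold for Gabra3, 3.20-fold for Gabrb2, 3.74-fold for Gabrb1, 4.47-fold for Gabra4, 5.42-fold for Gabra2 and 9.62-fold for Gabrg1. These ranges depend on the TMM factors, which ran from 0.6194 (knockdown-labelled unstressed replicate 7) to 1.258 (LacZ stressed replicate 2). The 4 groups held 1.2% (Gabra4) to 11% (Gabra5) of the variance of log2 CPM, where the median tested gene had 4.04%. LacZ stressed replicate 2 was the lowest of all libraries for the 6 members other than Gabra5, and knockdown-labelled unstressed replicate 7 was the highest for Gabra2, Gabra4 and Gabrb1. The latter library had the lowest total count (30.6 M), the fewest genes detected (20882) and the highest mitochondrial share (14.24%). Its raw counts of Gabra2 and Gabrb1, 15269 and 29636, were below the 22753 and 41085 of LacZ unstressed replicate 7, so its high place depended on the scaling.

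This spread followed the main axis along which the libraries differed. The first principal component of the log2 CPM of all tested genes other than the members held 58.8% of the variance, and Pearson's r of log2 CPM with it over 28 libraries was -0.935 for Gabrb2, -0.927 for Gabra4, -0.924 for Gabrb1, -0.910 for Gabra2, -0.849 for Gabrg1 and -0.837 for Gabra3. Gabra5 went the other way, with r = 0.613 (permutation p = 0.00061, adjusted p = 0.000654). For the other 6, Spearman's rho ran from -0.939 to -0.840 and the permutation p was 1.00e-05, the smallest that 100000 permutations can give, adjusted to 1.15e-05 over a family of 15 relations. Gabra5 had rho = 0.608. Without the 2 libraries farthest from the median of the component, r ran from -0.921 to -0.817 for the 6 and was 0.631 for Gabra5. Among libraries with title numbers (the running numbers in the sample titles) up to 20 (n = 15) and above 20 (n = 13), r ran from -0.944 to -0.784 and from -0.973 to -0.693 for the 6, and was 0.636 and 0.243 for Gabra5. The component also followed the order in which the samples were accessioned (r = -0.796, rho = -0.807, permutation p = 1.00e-05, r = -0.782 without the first and the last library). It ran from -0.587 to 1.69, with a median of 0.824, in the first 14 libraries, and from -1.99 to 0.773, with a median of -0.677, in the last 14. Each of these sets of 14 held 3 or 4 libraries of each group, and the labels name no batch. Within the first and the last 14, r of the members with the component ran from -0.909 to -0.802 and from -0.937 to -0.601 for the 6, and was 0.798 and 0.249 for Gabra5. The component took 43.3% of the variance within groups for Gabra5 and 72.1% (Gabra3) to 90% (Gabrb2) for the others.

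This relation was not particular to the receptor genes. Of all tested genes, 19.1% had r below -0.8 with the component and 34.6% had r above 0.6. Its value in a library was related to how steeply levels depended on the G + C content of transcripts (r = 0.996, rho = 0.995, r = 0.997 without the 2 farthest libraries, permutation p = 1.00e-05 and adjusted p = 1.15e-05 in the same family of 15). Both measures were computed from the same log2 CPM values, and the sign of the component was set so that this r is positive. The permutation p therefore does not compare independent measures. Across genes, which are not independent replicates, r with the component correlated with G + C content at 0.747. The 6 members with negative r have transcripts of 35.3% (Gabrg1) to 44.0% (Gabrb2) G + C and Gabra5 has 47.1%, against a median of 48.7% over tested genes. These values are of the longest spliced transcript, and the G + C content of the counted spans was not measured. For Gabra5, only 365 of 2974 exonic bp could be counted. The share of mitochondrial fragments also moved with the members, with r of 0.742 (Gabrg1) to 0.868 (Gabra4), rho of 0.754 to 0.898 and an adjusted p of 1.15e-05 for the 6, and -0.363 for Gabra5 (rho = -0.508, permutation p = 0.0568 for r and adjusted p = 0.0568). The relations of all members depended on the scaling. With total counts in place of TMM-scaled totals, r for Gabra5 was -0.709 with the mitochondrial share (permutation p = 2.00e-05) and 0.912 with the component. The other 6 then had weaker r with the component, -0.871 to -0.564 in place of -0.935 to -0.837, and their r with the mitochondrial share is not given here. The TMM factor was 0.6194 in the library lowest on the component (knockdown-labelled unstressed replicate 7) and 1.179 in the highest (LacZ unstressed replicate 1). With TMM-scaled totals and without the 2 libraries farthest in mitochondrial share, r with that share was 0.691 to 0.838 for the 6 and -0.503 for Gabra5.

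Summed levels of some cell type marker lists moved with the component too. Abundant genes weigh most in such a sum of CPM. Over the 28 libraries, Slc1a2 had 2255201 counts among the astrocyte markers and S100b 3057. Slco1a4 had 129618 among the endothelial markers and Cldn5 3121, and Gad2 162078 among the interneuron markers and Slc32a1 3271. The relation of single markers to the component is not given here. The summed level of the 7 astrocyte markers had r = -0.786, of the 4 endothelial markers -0.736, of the 10 interneuron markers -0.558 and of the 5 microglia markers 0.735, with adjusted permutation p of 4.5e-05, 4.5e-05, 0.00398 and 6e-05 over 9 lists and rho of -0.760, -0.737, -0.536 and 0.777. Without the 2 farthest libraries, these r were -0.720, -0.699, -0.528 and 0.721. Excitatory neuron, oligodendrocyte, precursor, striatal and meninges markers had r from -0.366 to 0.401, none with an adjusted p under 0.05. All astrocyte markers were detected, and their sum ran from 2616 to 3963 CPM in knockdown-labelled stressed, 2911 to 4954 in knockdown-labelled unstressed, 2322 to 3995 in LacZ stressed and 2783 to 4081 CPM in LacZ unstressed libraries. Interneuron markers summed to 364 to 907, 388 to 825, 416 to 631 and 453 to 642 CPM in the same order. The part of these cell types, of G + C content and of mitochondrial share in the subunit levels was not tested.

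**Figure D4:**
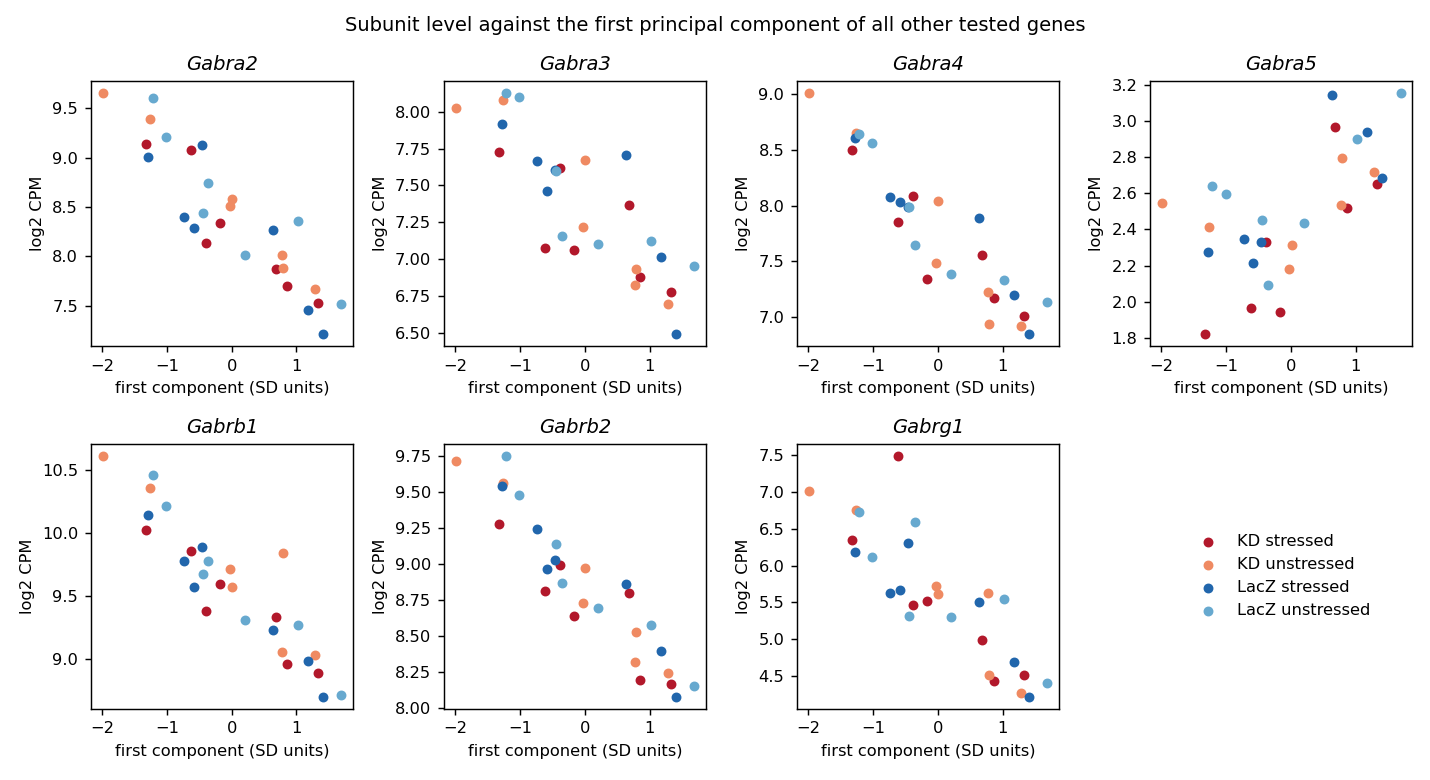
Level of each subunit gene (log2 CPM) against the first principal component of all other tested genes (in SD units), 1 point per library, coloured by group. Levels fall along the component for 6 genes, with r from -0.935 to -0.837, and rise for Gabra5, with r = 0.613; the 4 groups are mixed along the axis.

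The members were also compared with each other. In log2 CPM the 15 pairs among the 6 genes other than Gabra5 had r from 0.676 (Gabra3 and Gabrg1) to 0.965 (Gabra4 and Gabrb2), and the pairs with Gabra5 had r from -0.553 to -0.187. With the group means and the first component removed, Gabra3, Gabra4, Gabra5 and Gabrb2 were related in all of their 6 pairs: r was 0.888 for Gabra3 and Gabrb2, 0.867 for Gabra3 and Gabra4, 0.782 for Gabra5 and Gabrb2, 0.743 for Gabra4 and Gabrb2, 0.727 for Gabra4 and Gabra5 and 0.722 for Gabra3 and Gabra5. These had rho from 0.726 to 0.905 and adjusted permutation p of 9e-05 or less over 21 pairs, and r was 0.608 to 0.861 without the 2 farthest libraries of each pair's first gene. Gabra5, opposed to the others along the component, thus moved with 3 of them once it was taken out. How often other pairs of genes reach such r was not counted, so these relations are not shown to be particular to the subunits. The next principal component, with 14.7% of the variance, was left in. Among 13115 candidates, genes outside the receptor reached higher r after the same removal, such as Strbp with Gabra3 at 0.941.

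The other pairs with an adjusted p under 0.05 were 2 pairs of Gabra2, with r = 0.722 to Gabrg1 (rho = 0.714, adjusted permutation p = 9e-05, r = 0.692 without the 2 farthest libraries) and 0.515 to Gabrb1 (rho = 0.550, adjusted permutation p = 0.0126, r = 0.455). Without knockdown-labelled stressed replicate 7, the Gabra2 and Gabrg1 relation was 0.707, and leaving out any single library gave 0.695 to 0.753. Gabrb1 and Gabrg1 had r = 0.157 (rho = 0.309, adjusted permutation p = 0.543), and 0.505 without knockdown-labelled unstressed replicates 2 and 6, so that value rested on those libraries. Gabrb1 and Gabrb2 had r = 0.417 (rho = 0.396, permutation p = 0.0267, adjusted p = 0.0623, r = 0.433 without the 2 farthest libraries). Gabra4 and Gabrb1, whose annotated spans overlap head to head, had r = -0.038 (rho = 0.032, adjusted permutation p = 0.879). The permutations treat the residuals as free of the 5 terms removed, so these p are somewhat too small.

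**Figure D5:**
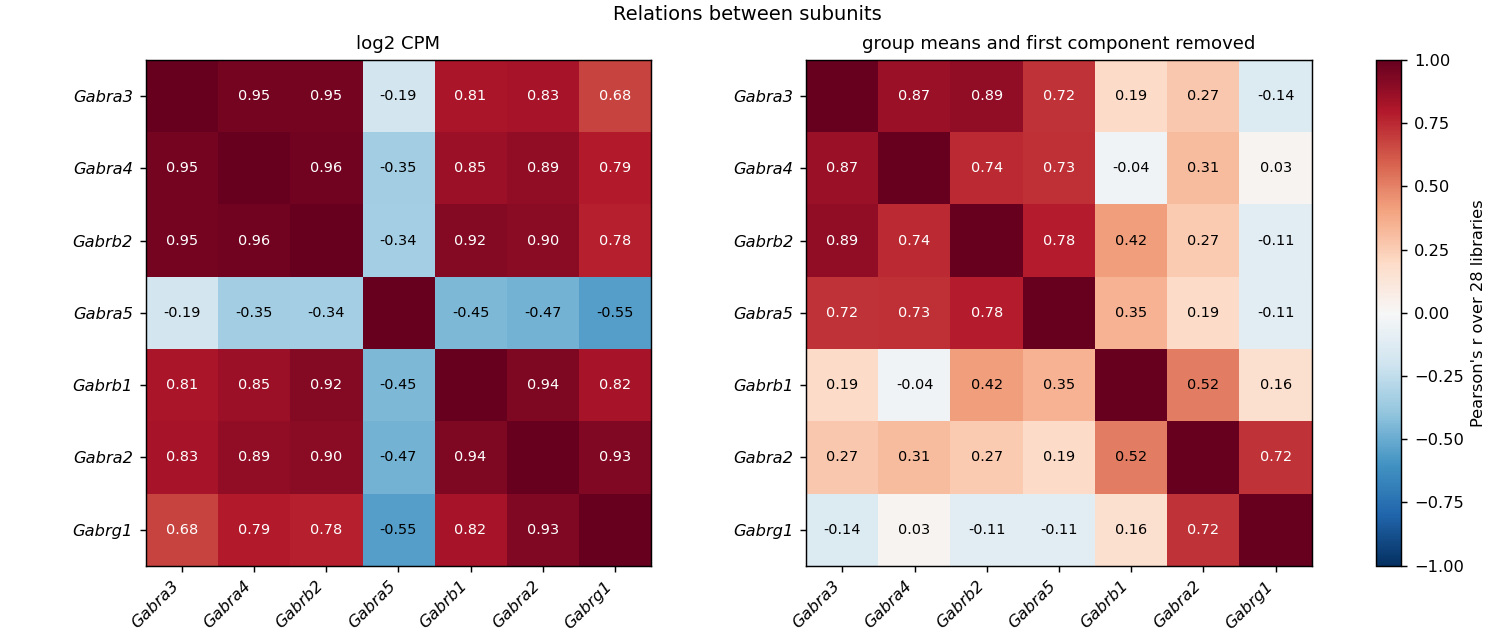
Pearson's r between subunit genes over 28 libraries, on log2 CPM (left) and with group means and the first component removed (right). On the right, Gabra3, Gabra4, Gabrb2 and Gabra5 form a block of r from 0.722 to 0.888, and Gabra2 is related to Gabrg1 at 0.722 and Gabrb1 at 0.515.

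Ratios between subunits show the same in single libraries. The log2 ratio of Gabra2 over Gabra4 CPM averaged 0.61 ± 0.40 in knockdown-labelled stressed, 0.77 ± 0.16 in knockdown-labelled unstressed, 0.45 ± 0.31 in LacZ stressed and 0.74 ± 0.29 in LacZ unstressed libraries (SD, n = 7 each), and was highest, at 1.23, in knockdown-labelled stressed replicate 7. In that library Gabra2 over Gabrg1 was lowest, at 1.59, where the groups averaged 2.72 ± 0.53, 2.88 ± 0.38, 2.79 ± 0.11 and 2.84 ± 0.34 in the same order. Gabrb1 over Gabrb2 was 0.74 ± 0.22, 0.87 ± 0.23, 0.60 ± 0.14 and 0.68 ± 0.13, with its highest value, 1.32, in knockdown-labelled unstressed replicate 2. The 4 groups overlapped in each of these ratios. With the component removed, the library of high Gabrg1 ranked 1 of 28 for Gabrg1, 3 for Gabra2, and 27 for both Gabra3 and Gabrb2.

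The genes most like each member were those with the highest r of log2 CPM over the 28 libraries with group means removed, among 13115 candidates. Gabra4 was most like Ttll7, a tubulin-modifying enzyme, and Mib1, a ubiquitin ligase of Notch signalling, both at r = 0.993. Gabrb1 was most like Tmcc1 (0.992) and Mbd5 (0.989), Gabrb2 like the adhesion protein gene Nptn (0.990) and the scaffold gene Dlg1 (0.985), and Gabra2 like Tsga10 (0.984) and the nutrient-sensing GTPase gene Rragb (0.979). Gabra3 was most like Adam22, a neuronal surface protein gene, at 0.983 and Strbp at 0.982, Gabrg1 like the kinase gene Dgkb (0.974) and Mum1l1 (0.966), and Gabra5 like the synaptotagmin gene Syt13 and the vesicle fusion gene Nsf (both 0.934).

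With the component also removed, Gabra4 kept Ttll7 (0.964), followed by Stradb (0.950), Gabrb1 kept Tmcc1 (0.938), followed by the calcium channel gene Cacna1e (0.932), and Gabra2 kept Tsga10 (0.901), followed by Gpc3 (0.877). Gabra3 was then nearest to the vesicle protein gene Syngr1 and to Strbp (both 0.941), Gabrb2 to Vopp1 (0.912) and the vesicle protein gene Sv2a (0.910), and Gabra5 to Rab11fip4 (0.926) and the tau gene Mapt (0.917). Gabrg1 was nearest to Klhl13 (0.946) and Dgkb (0.901). All points of these relations share the 28 libraries, and none of the named genes lies on the chromosome of its member.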

How the data were processed

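Total RNA of 28 vmPFC punches was sequenced as ribosome-depleted libraries, per the labels' protocols. The deposited values are raw counts of fragments per gene, made by the authors with featureCounts 1.6.2 over whole gene spans of the Ensembl release 90 annotation of GRCm38, with pairs counted as fragments, no strand option and duplicates removed before, per the file headers. HISAT2 and DESeq2 are also named, per the submitters' processing notes. Antisense reads therefore count toward a gene. Of 52636 identifiers, 52403 were matched to symbols and G + C content with GENCODE release M21, and start windows came from RefSeq.

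After filterByExpr (19171 genes) and TMM scaling, the test was edgeR 4.0.16 (glmQLFTest on a robust glmQLFit) over all 28 libraries, with 1 coefficient per group, no covariates and Benjamini-Hochberg adjustment over all genes at 0.05; the common biological coefficient of variation was 0.467. The test was checked on simulated data, drawn for each gene separately and without a component shared between genes. That check therefore does not cover the shared component of the real libraries. Single values of 7 against 7 were compared by two-sided exact permutation over 3432 splits (SciPy 1.17.1). CPM use the TMM-scaled total, and log2 CPM a prior count of 2. Mice are separate per the labels, so p-values reflect the spread between animals, dissections and libraries. Alternatives were DESeq2 1.42.0, limma 3.58.1 (voomWithQualityWeights), RLE factors, total counts, no filter, an adjusted p of 0.1, a prior count of 0.5, fits of only the 2 groups, the first component or a title number above 20 as covariate, each library left out, and, added after the data were seen, 3 libraries left out together, the place in accession order as covariate, countable spans and pairs with the component removed. No pair of libraries held identical counts (smallest chi-square 12.0 per gene), and replicate numbers give accession order only. Named were all members, Slit1, for each member the 2 genes of highest r (mean CPM of at least 1, no predicted genes) with and without the component, and the 3 pathway genes of smallest p in each averaged comparison. The members and lists were chosen with earlier results of these data known, and 1 gene of the striatal list is not reported here.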

Additional observations from a re-analysis of the deposited data

Results flagged for a closer look

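Gabrg1 in knockdown-labelled stressed replicate 7 stood at 179 CPM, where the nearest library of its group had 81.1 CPM. In CPM, the gap was 0.623 of the group's whole range, above the critical value of Dixon's test at the 95% level for 7 samples. In log2 CPM the library stood at 7.487, the nearest at 6.343 and the lowest of the group at 4.440. On that scale the gap was a smaller share of the range, below the critical value, so the mark depended on the scale. Over the 7 members and 4 groups, 28 sets of 7 were tested in CPM and 1 was marked, where chance marks about 1 in 20. The same library had the highest sum of striatal neuron markers, and the part of that in the Gabrg1 value was not tested.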

How the results depend on the processing

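No call depended on the processing: 0 genes and 0 of 7 members were called in any comparison run under an alternative, the 28 omissions of a single library included. The main fit tested 19171 genes, and the number could differ where the count filter was dropped or applied again. Fits of only the 2 groups cover the comparisons of 7 against 7 and not the averaged ones or the interaction. Of 1526 fitted or averaged member values under alternatives, 1346 kept their sign and 180 changed it, 108 of these when 1 library was left out. Values under an adjusted p of 0.1 are those of the main fit, so their sign could not change. The lowest adjusted p of any was 0.426, for Gabrb1 and stress over both viruses with the first component as covariate. For stress over both viruses, 2 members with the first component and 3 with the place in accession order as covariate had an unadjusted p under 0.05, where the fit without a covariate gave none. No paired analysis was possible because the groups share no replicate numbers in the labels: every title number is used once, and numbers in accession order pair no libraries. Most fold changes here are smaller than their standard errors, so their signs are uncertain, and the causes of the changes of sign were not tested. The following log2 values had the other sign than in the report or were at 0. By the difference of mean log2 CPM, the values were Gabra2 0.01 for the knockdown label with stress, and Gabra2 -0.03, Gabra4 -0.06 and Gabrg1 -0.07 for the knockdown label without stress. With the first component as covariate, the values were Gabra2 0.00 for the knockdown label with stress, Gabra2 -0.08, Gabra4 -0.08 and Gabrg1 -0.14 for the knockdown label without stress, and Gabrg1 0.10 for stress under the knockdown label. They were Gabra4 0.01 for stress under LacZ, and Gabra2 0.08 for the interaction. Without a count filter, the values were Gabra2 0.00 for the knockdown label without stress, and Gabrg1 0.02 for stress under the knockdown label. An alternative added after the data were seen left out 3 libraries for other tissue or immune content. They were knockdown-labelled stressed replicates 2 and 7 and LacZ stressed replicate 4, and the ground for the last is not shown here. Without these 3, the values were Gabrg1 -0.19 for the knockdown label with stress, Gabrb1 -0.03 and Gabrg1 -0.08 for the knockdown label over both stress states, and Gabrg1 -0.23 for the interaction. With the place in accession order as covariate, the values were Gabrg1 -0.07 for the knockdown label with stress, Gabra2 -0.06, Gabra4 -0.06 and Gabrg1 -0.13 for the knockdown label without stress, and Gabrb1 -0.01 and Gabrg1 -0.10 for the knockdown label over both stress states. They were Gabra5 0.00 for stress under LacZ. In fits of only the 2 groups, the values were Gabra2 0.01 for the knockdown label with stress, and Gabra2 -0.01 for the knockdown label without stress. With a title number above 20 as covariate, the values were Gabra2 -0.34, Gabra4 -0.23, Gabra5 0.04, Gabrb1 -0.17 and Gabrg1 -0.45 for the knockdown label without stress, Gabrb1 -0.10 and Gabrg1 -0.15 for the knockdown label over both stress states, and Gabrg1 0.19 for stress under the knockdown label. They were Gabra5 0.00 for stress under LacZ, and Gabra2 0.34, Gabra3 0.02, Gabra4 0.04, Gabrb1 0.14 and Gabrb2 0.11 for the interaction. With total counts, the values were Gabra2 0.05 and Gabrb1 0.01 for the knockdown label with stress, Gabra2 -0.04, Gabra4 -0.02 and Gabrg1 -0.05 for the knockdown label without stress, and Gabra2 0.01 for the knockdown label over both stress states. They were Gabrg1 0.17 for stress under the knockdown label, Gabra3 0.02, Gabra4 0.05 and Gabra5 0.02 for stress under LacZ, and Gabra4 0.00 for stress over both viruses. They were Gabra2 0.08 for the interaction. With voomWithQualityWeights, the values were Gabrg1 -0.17 for the knockdown label with stress, Gabra2 -0.11, Gabra4 -0.18, Gabrb1 -0.08 and Gabrg1 -0.21 for the knockdown label without stress, and Gabrb1 -0.16 and Gabrg1 -0.19 for the knockdown label over both stress states. They were Gabra4 0.08, Gabrb2 0.01 and Gabrg1 0.05 for stress under the knockdown label, Gabra2 0.00, Gabra3 0.15, Gabra4 0.23, Gabrb1 0.04, Gabrb2 0.09 and Gabrg1 0.01 for stress under LacZ, and Gabra3 0.07, Gabra4 0.15, Gabrb2 0.05 and Gabrg1 0.03 for stress over both viruses. With single libraries left out, the values of some members crossed 0. For the knockdown label with stress the ranges were -0.19 to 0.16 (Gabra2), -0.17 to 0.07 (Gabrb1) and -0.24 to 0.48 (Gabrg1). For the knockdown label without stress the ranges were -0.23 to 0.23 (Gabra2), -0.22 to 0.05 (Gabra3), -0.23 to 0.21 (Gabra4), -0.06 to 0.28 (Gabrb1), -0.24 to 0.09 (Gabrb2) and -0.25 to 0.24 (Gabrg1). For the knockdown label over both stress states the ranges were -0.11 to 0.11 (Gabra2), -0.19 to 0.02 (Gabra4), -0.05 to 0.11 (Gabrb1) and -0.10 to 0.28 (Gabrg1). For stress under the knockdown label the ranges were -0.42 to 0.06 (Gabra4) and -0.57 to 0.31 (Gabrg1). For stress under LacZ the ranges were -0.14 to 0.07 (Gabra3), -0.18 to 0.14 (Gabra4), -0.16 to 0.07 (Gabra5) and -0.23 to 0.06 (Gabrb2). For stress over both viruses the ranges were -0.22 to 0.02 (Gabra4) and -0.43 to 0.01 (Gabrg1). For the interaction the ranges were -0.24 to 0.24 (Gabra2), -0.39 to 0.08 (Gabra4), -0.24 to 0.01 (Gabra5), -0.34 to 0.01 (Gabrb1), -0.29 to 0.05 (Gabrb2) and -0.28 to 0.59 (Gabrg1). The libraries at the ends of these ranges were most often replicate 7 of the unstressed groups, and for Gabrg1 replicate 7 of the knockdown-labelled stressed group. Counting error bears most on Gabra5, which rested on at most 424 fragments per library.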
